A study of Mus musculus with 194 samples.

Results

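The transcripts of 10 epigenetic genes were followed in single mouse cells of known pedigree. The genes were Uhrf1 and Dnmt1, which copy DNA methylation onto new strands, the de novo methyltransferase genes Dnmt3a and Dnmt3b, the methylcytosine oxidase genes Tet1, Tet2 and Tet3, the Polycomb genes Ezh2 and Eed, and the histone demethylase gene Kdm5b. They were chosen by name out of the 23420 gene names of the deposited table, with their levels, their relation to time since division and their likeness within lineages already known, so those 3 measures are described here without a test. All 10 were present in the table. In the study, a single cell was loaded into a lane of traps of a microfluidic device and grew there for a pair of generations, and its descendants were then released one by one, so that sisters, cousins and the hours since each cell's last division are on record. The CD8 group consisted of primary CD8+ T-cells from the spleens of several C57BL/6J mice of both sexes. They were activated for 30 h before loading with plate-bound antibody against CD3 (5 μg per ml) and soluble antibody against CD28 (2 μg per ml). Their medium held 100 U per ml of IL2. The L1210 group consisted of an established lymphocytic leukemia line (strain label DBA subline 212), cultured without activation or IL2. Both media were RPMI with 10% serum, and 2-mercaptoethanol is listed for the CD8 medium only. The labels name no engineered allele in either group, and the line stands for a single leukemia.

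When a cell copies its DNA, each daughter duplex is methylated on the parental strand alone. The UHRF1 protein binds such hemimethylated sites and recruits DNMT1, which methylates the new strand, whereas DNMT3A and DNMT3B can methylate sites that carried no mark. TET enzymes oxidise 5-methylcytosine, a step towards its removal. EZH2 and EED are the catalytic and the mark-binding subunit of Polycomb repressive complex 2 (PRC2), which methylates histone H3 at lysine 27, and KDM5B removes methyl groups from lysine 4 of histone H3. In T-cells these enzymes are known for their part in setting up and holding effector and memory gene programmes after activation.

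Libraries labelled as doublets were left out, 4 of CD8 and 2 of L1210, as were those with fewer than 1000 genes above 0 TPM, 5 of each type. This left 97 CD8 cells in 34 lineages and 81 L1210 cells in 26 lineages, where a lineage is the set of cells joined by sister and cousin labels that both cells give. The unit TPM is a level per transcript length that adds to the same total in every library. It keeps no read depth, and the number of reads per library was not used here, so the number of genes above 0 TPM (detected genes) stands here for the quality of a library. It ran from 2639 to 10905 in CD8 cells with a median of 6862, and from 1610 to 10454 in L1210 cells with a median of 8402. The left-out library nearest to the limit had 801 detected genes and the kept library nearest to it 1610. The summed TPM of 6 CD8 T cell markers was 960.7 to 6399 in CD8 cells and at most 45.7 in L1210 cells, where Cd3e and Cd3g were at 0 in every cell. The summed TPM of 7 B lineage markers was 483 to 4702 in L1210 cells and at most 283 in CD8 cells, where Pax5, Vpreb1 and Igll1 were at 0. The L1210 libraries with the fewest detected genes were L1210_15 (1610), L1210_8 (2718), L1210_26 (2747) and L1210_27 (3190), and the ribosomal precursor Rn45s took 55.5% of TPM in L1210_15 and 79.3% in L1210_8, beside a median of 21.9% over L1210 cells. L1210_84, the only kept relative of L1210_8, had 4951 detected genes and 27.4% Rn45s. The likeness within L1210 lineages and the slopes of Uhrf1 and Dnmt1 on hours are given with and without the pair L1210_8 and L1210_84, and the likeness also without L1210_15.

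The starts of Dnmt1, Uhrf1 and Ezh2 are shown first because they carry the same kind of sequence and because these 3 genes had the highest correlations with G1/S genes among the 6 members widely enough detected in L1210 cells (below). In CD8 cells that did not hold for Ezh2. RefSeq promoter windows of 300 bases on build GRCm38.p6 were found for all 10 genes, 15 windows in all. They were searched on both strands for the E2F-type motifs TTTGGCGC, TTTCGCGC, TTTCCCGC and TTTGCCGC and for the NRF1 motif, a palindrome of 10 bases printed in capitals in the Dnmt1 line. The lines below give 1 window each for Dnmt1 (chr9:20952574-20952873, minus strand), Uhrf1 (chr17:56304063-56304362, plus strand), Ezh2 (chr6:47594981-47595280, minus strand) and Kdm5b (chr1:134559928-134560227, plus strand), 5′ to 3′ along the gene, with every match of these in capitals.
Dnmt1: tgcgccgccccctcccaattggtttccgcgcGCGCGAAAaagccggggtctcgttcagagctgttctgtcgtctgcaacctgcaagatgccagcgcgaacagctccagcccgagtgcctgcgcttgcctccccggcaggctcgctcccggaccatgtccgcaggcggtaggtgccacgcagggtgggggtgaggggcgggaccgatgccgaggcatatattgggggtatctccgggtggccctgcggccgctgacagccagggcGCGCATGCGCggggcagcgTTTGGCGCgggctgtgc
Uhrf1: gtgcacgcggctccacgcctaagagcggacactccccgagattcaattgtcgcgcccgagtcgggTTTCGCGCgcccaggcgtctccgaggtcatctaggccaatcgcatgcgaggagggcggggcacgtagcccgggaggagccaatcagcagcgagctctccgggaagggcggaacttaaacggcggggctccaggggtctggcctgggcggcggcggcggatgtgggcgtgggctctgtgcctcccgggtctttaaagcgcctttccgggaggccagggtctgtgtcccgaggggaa
Ezh2: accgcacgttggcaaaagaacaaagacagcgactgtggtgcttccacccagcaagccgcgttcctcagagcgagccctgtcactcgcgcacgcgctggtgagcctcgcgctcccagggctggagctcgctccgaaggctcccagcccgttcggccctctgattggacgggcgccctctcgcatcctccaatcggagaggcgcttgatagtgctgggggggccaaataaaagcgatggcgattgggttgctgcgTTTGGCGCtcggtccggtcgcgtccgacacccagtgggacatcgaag
Kdm5b: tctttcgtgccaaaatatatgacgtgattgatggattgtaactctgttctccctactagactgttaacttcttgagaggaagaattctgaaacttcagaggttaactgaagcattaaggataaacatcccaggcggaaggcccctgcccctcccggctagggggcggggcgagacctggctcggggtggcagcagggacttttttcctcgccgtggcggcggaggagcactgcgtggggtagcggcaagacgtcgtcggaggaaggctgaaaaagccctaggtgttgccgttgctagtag
Any of the 4 E2F-type motifs was present in 3 of the 15 windows, 1 each of Dnmt1, Uhrf1 and Ezh2, and in 2.26% of all 32851 windows. G and C made up 69.7, 68.3 and 64.3% of the bases of these 3 windows, beside a median of 52.7% over all windows. The shares were not compared at equal base content. Dnmt1 carried TTTGGCGC and the reverse complement of TTTCGCGC, Uhrf1 carried TTTCGCGC and Ezh2 carried TTTGGCGC. The NRF1 motif was in 2 windows, both of Dnmt1, and in 0.971% of all windows. The Kdm5b window, shown for contrast, held none of these motifs. A CCAAT box, also searched and not marked, was in 7 of the 15 windows and in 37.4% of all windows. These matches describe the letters only. By the GENCODE annotation of GRCm38, the build of the deposited table (mm10), the 10 genes are protein-coding and lie on chromosomes 9 (Dnmt1), 17 (Uhrf1), 12 (Dnmt3a), 2 (Dnmt3b), 10 (Tet1), 3 (Tet2), 6 (Tet3 and Ezh2), 7 (Eed) and 1 (Kdm5b).

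Uhrf1 had the highest mean level of the 10 genes in both cell types. It was above 0 TPM in 94 of 97 CD8 cells, with a lowest value of 0, a median of 147 and a highest value of 655 TPM. In L1210 it was above 0 TPM in 73 of 81 cells, with a median of 66.7 and a highest value of 255 TPM, in L1210_27. Averaged within lineages on the scale ln(TPM + 1), the level was 4.52 ± 1.25 in CD8 cells (SD, n = 34 lineages) and 3.59 ± 1.38 in L1210 cells (SD, n = 26 lineages). CD8 cells were thus mostly higher, but the groups overlapped, with 14 of 34 CD8 lineages above every L1210 lineage. In L1210 cells the 8 zeros were not all in libraries with few detected genes. L1210_39, L1210_43, L1210_52 and L1210_56 were listed at 0 for Uhrf1 with 9221, 8185, 9622 and 8097 detected genes, and all 4 had Dnmt1 above 0, between 12.2 and 52.3 TPM. A single transcript can be missed in such a library too, and whether these zeros were absent or missed transcripts was not tested.

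Dnmt1 was detected about as widely. It was above 0 TPM in 95 CD8 cells, with a median of 70.6 and a highest value of 237 TPM. The L1210 cells above 0 numbered 79, with a median of 39.6 and a highest value of 89.05 TPM. The lineage level was 3.85 ± 0.95 in CD8 cells (SD, n = 34) and 3.44 ± 0.84 in L1210 cells (SD, n = 26) on the ln(TPM + 1) scale, and 12 of 34 CD8 lineages lay above every L1210 lineage.

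The de novo enzymes were lower, and they split by cell type. Dnmt3a was above 0 TPM in 82 CD8 cells (median 8.15, highest 37.4 TPM) and in 75 L1210 cells (median 7.79, highest 58.7 TPM), at lineage levels of 1.77 ± 0.81 (SD, n = 34) and 1.87 ± 0.55 (SD, n = 26) in ln(TPM + 1). Those levels overlapped almost completely. Dnmt3b was above 0 TPM in 38 CD8 cells, with a highest value of 46.8 TPM and a median of 7.58 TPM among cells above 0, and in a single L1210 cell, L1210_23, at 4.93 TPM. The CD8 cells with Dnmt3b had a median of 7800 detected genes and those without it 6271, so library quality moved with its detection, and the part of this in its pattern was not tested.

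Among the TET genes the same split was seen. Tet3 was the highest of the 3 in both types, above 0 TPM in 85 CD8 cells (median 9.23, highest 71.6 TPM) and in 78 L1210 cells (median 10.4, highest 131 TPM, in L1210_26). Tet2 was above 0 TPM in 62 CD8 cells, with a median of 2.60 and a highest value of 31.9 TPM over all 97 cells. In L1210 it was above 0 TPM in 2 of 81 cells, at 5.46 TPM in L1210_8, a library with few detected genes, and at 0.37 TPM in L1210_66, although L1210 libraries had more detected genes than CD8 libraries. Tet1 was above 0 TPM in 29 CD8 cells (highest 12.4 TPM) and in 9 L1210 cells (highest 1.34 TPM). Of the TET genes, Tet2 thus separated the groups most, with 23 of 34 CD8 lineages above every L1210 lineage.

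Both PRC2 genes were high in CD8 cells. Ezh2 was above 0 TPM in 95 CD8 cells, with a median of 67.9 and a highest value of 218 TPM. In L1210 it was above 0 in 74 cells, with a median of 28.0 and a highest value of 84.1 TPM. Its lineage level was 4.01 ± 0.46 in CD8 cells (SD, n = 34) and 3.01 ± 0.86 in L1210 cells (SD, n = 26) in ln(TPM + 1), the smallest spread between CD8 lineages among the 6 most widely detected genes. Of the 34 CD8 lineages, 17 lay above every L1210 lineage. Eed was above 0 TPM in 94 CD8 cells (median 58.9, highest 361 TPM) and in 73 L1210 cells (median 41.5, highest 121 TPM), and only 2 CD8 lineages lay above every L1210 lineage.

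Kdm5b was close to the limit of detection. It was above 0 TPM in 23 of 97 CD8 cells, 23.7% with an exact 95% interval of 15.7 to 33.4%, which covers counting error only. The median of those 23 cells was 2.96 TPM and the highest value 26.03 TPM. In L1210 it was above 0 TPM in 2 of 81 cells, at 0.53 TPM in L1210_2 and 0.68 TPM in L1210_6.

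**Figure D1:**
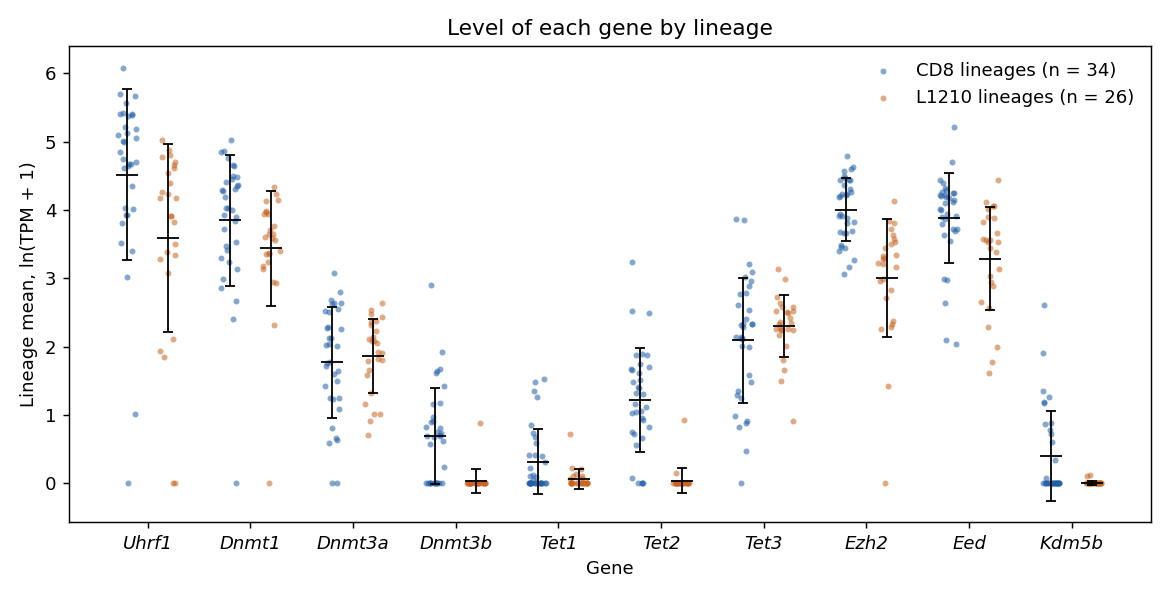
Level of the 10 genes in ln(TPM + 1), 1 point for each of 34 CD8 lineages and 26 L1210 lineages, each the mean of its cells, with the mean and SD over lineages as black bars. Uhrf1, Dnmt1, Ezh2 and Eed lie highest in both types, and Dnmt3b, Tet2 and Kdm5b lie close to 0 in L1210 lineages.

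In order of mean level, CD8 lineages had Uhrf1, Ezh2, Eed, Dnmt1, Tet3, Dnmt3a, Tet2, Dnmt3b, Kdm5b and Tet1. Between neighbours in that order, 1 step exceeded the spread over lineages, from Dnmt1 to Tet3, with a mean difference of 1.76 ± 0.85 (SD, n = 34 lineages) in ln(TPM + 1) and Dnmt1 higher in 32 of 34 lineages. In L1210 lineages the order was Uhrf1, Dnmt1, Eed, Ezh2, Tet3, Dnmt3a, Tet1, Tet2, Dnmt3b and Kdm5b, and the step that exceeded the spread was from Dnmt3a to Tet1, by 1.80 ± 0.61 (SD, n = 26 lineages) and in 26 of 26 lineages. The other 8 steps in each type were smaller than the SD of the difference between the 2 genes over lineages.

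No label ties a cell to a mouse or a culture, so each cell type is 1 sample for a comparison of the types, and ratios are given without a p value. The ratio is that of the mean TPM over lineages with 1 TPM added to both means, which understates differences of low genes, and past 2-fold was called different. By this measure 5 of the 10 genes were higher in CD8 cells, beside 12.1% of all 11373 genes compared, and none was lower, beside 2611 of those genes. Of these 5, Dnmt3b, Tet2 and Kdm5b passed the filter on low values in CD8 cells alone, so they could hardly come out lower there. The rule that chose the members used their levels, so this count carries no weight as support. On the ln(TPM + 1) scale 8 of 10 were higher and Dnmt3a and Tet3 were lower, and the share of all genes higher on that scale was not counted. The difference exceeded the pooled SD over lineages for Tet2 (1.18 beside 0.55), Ezh2 (1.00 beside 0.69) and Dnmt3b (0.66 beside 0.51), and was smaller than it for the other 7, Uhrf1 (0.93 beside 1.32) and Kdm5b (0.40 beside 0.46) among them. The median log2 ratio over all genes was -0.33. Uhrf1 had 161 ± 95.9 TPM in CD8 (SD, n = 34 lineages) and 68.1 ± 43.9 TPM in L1210 (SD, n = 26), a ratio of 2.35. Ezh2 had 68.6 ± 25.6 and 28.2 ± 13.8 TPM, a ratio of 2.38. Tet2 had 5.45 ± 5.21 and 0.11 ± 0.54 TPM, a ratio of 5.80, Dnmt3b 3.50 ± 4.56 and 0.09 ± 0.48 TPM, a ratio of 4.11, and Kdm5b 1.27 ± 2.74 and 0.01 ± 0.04 TPM, a ratio of 2.25. Dnmt1 (1.701), Eed (1.73) and Tet1 (1.67) stayed under 2-fold, and Dnmt3a (1.08) and Tet3 (1.09) had nearly equal means.

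The rest of the machinery was read from 6 lists of 79 further genes, of which 77 could be compared. Of these, 7 were higher and 14 lower in CD8 cells, 27.3% in all beside 35.1% of all genes. PRC1, the Polycomb complex that modifies histone H2A, accounted for 13 of the 21, with 3 of its 22 genes higher and 10 lower in CD8 cells and a median log2 ratio of -0.45. The genes past 2-fold were named after their values were seen. The higher ones were Phc3, at 33.1 ± 22.5 TPM in CD8 and 4.03 ± 2.36 TPM in L1210, the chromobox gene Cbx7, at 9.78 ± 8.996 and 2.33 ± 3.03 TPM, and Ring1. The lower ones included Scmh1, at 3.29 ± 4.49 TPM in CD8 and 28.2 ± 17.1 TPM in L1210, the RING finger gene Bmi1, at 2.98 ± 4.25 and 13.1 ± 6.42 TPM, and the ubiquitin ligase gene Rnf2, at 10.6 ± 12.3 and 26.3 ± 14.6 TPM (SD, n = 34 and 26 lineages throughout). Rybp, Pcgf2, Pcgf3, Cbx2, Yaf2 and Kdm2b were lower too. Of 9 PRC2 partners, Aebp2 was higher and Jarid2 lower, and the core subunit gene Suz12, at 6.74 ± 5.87 and 7.19 ± 3.86 TPM, was not past 2-fold. Of 18 DNA methylation partners compared, Hells, a remodeller needed for methylation of repeats, was higher at 44.3 ± 25.4 beside 20.2 ± 14.6 TPM, as were Mbd2 and Gadd45g. Of 6 further lysine demethylases, Kdm1a and Kdm6b were lower and none was higher. None of 13 genes of the lysine 4 methyltransferase complexes and none of 9 genes of lysine 9 methylation was past 2-fold.

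**Figure D2:**
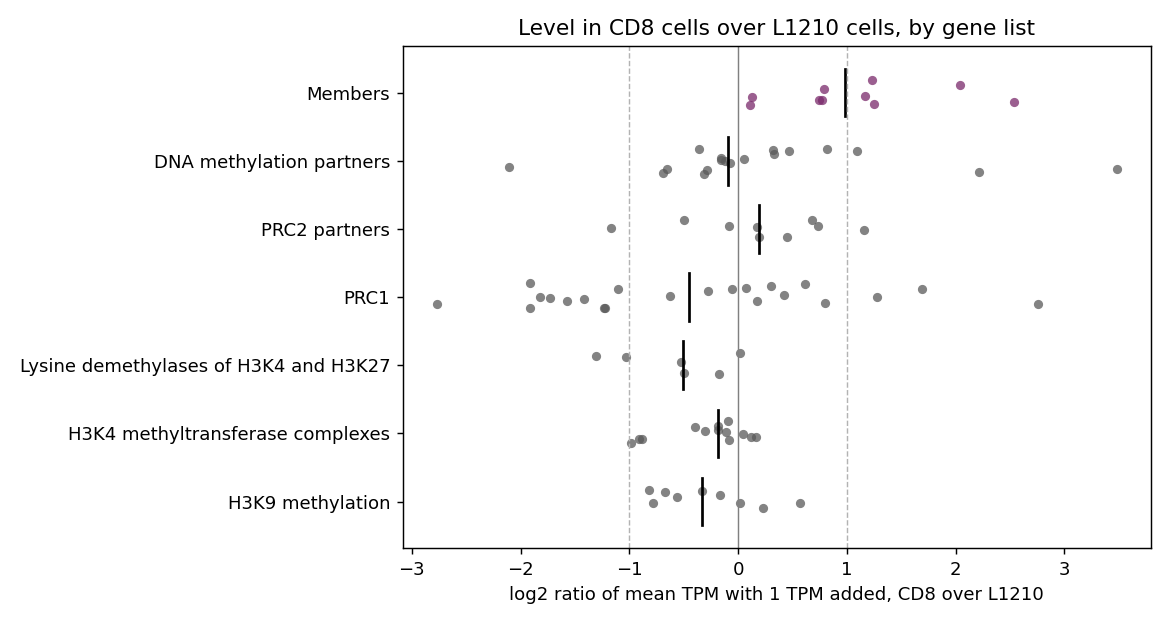
log2 ratio of mean TPM with 1 TPM added, CD8 over L1210, 1 point per gene, for the 10 members and 6 lists of related genes, with each median as a black bar and dashed lines at 2-fold. The 10 members lie between 0.11 and 2.54, and PRC1 spans -2.77 to 2.76 with a median of -0.45.

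The study recorded hours since division in order to relate transcripts to progress through the cell cycle. Times were on record for 94 of 97 CD8 cells (0.5 to 9.47 h, 31 lineages) and for all 81 L1210 cells (0.354 to 12.8 h). In CD8 cells Uhrf1 was highest soon after division. Its median was 185 TPM in 23 cells at 0 to 3 h (lowest 73.1, highest 532), 147 TPM in 45 cells at 3 to 6 h (lowest 0, highest 655) and 109 TPM in 23 cells at 6 to 9 h (lowest 2.66, highest 373). These 3 bins overlapped, and the medians fell from each to the next. The slope of the lineage mean was -0.25 ± 0.07 in ln(TPM + 1) per hour (SE, n = 31 lineages). One lineage later than 9 h carried part of this, CD8_5, CD8_6 and CD8_7, with Uhrf1 at 2.17, 0.66 and 2.94 TPM, and without it the slope was -0.16 ± 0.06 (SE, n = 30). In CD8_5 and CD8_6, with 5726 and 5778 detected genes, Ezh2 was 71.9 and 86.3 TPM and Dnmt1 88.8 and 57.1 TPM, so these genes were not low there along with Uhrf1. In CD8_7, with 2985 detected genes, Ezh2 was 3.80 TPM and Dnmt1 was at 0, so all 3 genes were low in that cell.

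Dnmt1 in CD8 cells went the same way with a smaller slope. Its median was 70.6 TPM at 0 to 3 h, 72.2 TPM at 3 to 6 h and 59.8 TPM at 6 to 9 h, and the slope was -0.13 ± 0.05 per hour (SE, n = 31), or -0.12 ± 0.05 without the late lineage (n = 30). Ezh2 and Eed had slopes of 0.02 ± 0.04 and -0.03 ± 0.05 per hour, both within 1 SE of 0. Of the other genes, Tet2 had -0.09 ± 0.06, Tet3 -0.07 ± 0.07, Dnmt3a -0.06 ± 0.06, Dnmt3b 0.03 ± 0.06, Tet1 0.04 ± 0.04 and Kdm5b -0.01 ± 0.05 per hour (SE, n = 31). With the number of detected genes as a covariate the slopes of Uhrf1 and Dnmt1 were -0.22 ± 0.06 and -0.13 ± 0.05.

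In L1210 cells the level of Uhrf1 did not run in 1 direction. Its median was 60.6 TPM in 33 cells at 0 to 3 h, 121 TPM in 20 cells at 3 to 6 h, 56.1 TPM in 16 cells at 6 to 9 h and 35.9 TPM in 12 cells from 9 h on. The lineage means of these bins were 3.75 ± 1.03 (n = 10 lineages), 4.66 ± 0.63 (n = 7), 3.84 ± 1.04 (n = 6) and 2.71 ± 1.93 (SD, n = 7) in ln(TPM + 1). The mean level of 19 genes of the G1/S transition, such as Pcna and the Mcm genes of the replication helicase, followed the same course over the bins, with 4.07 ± 0.56, 4.56 ± 0.18, 3.91 ± 0.63 and 3.49 ± 1.11. The last bin includes L1210_8 and L1210_84, with G1/S means of 0.34 and 2.07 and Uhrf1 at 0. It also includes L1210_52, the only kept cell of its lineage, with Uhrf1 at 0. Bin means without these cells were not computed, so the fall after 9 h may rest largely on them. Ezh2 had its highest bin mean at 3 to 6 h too, 3.49 ± 0.22, beside 3.11 ± 0.64 before and 3.01 ± 0.96 after it. The straight slope of Uhrf1 was -0.11 ± 0.07 per hour (SE, n = 26 lineages), and it was 0.01 ± 0.10 without the 7 lineages later than 9 h (n = 19) and -0.07 ± 0.06 without L1210_8 and L1210_84. Dnmt1 had -0.02 ± 0.04, Ezh2 -0.05 ± 0.04 and Eed 0.00 ± 0.04 per hour, and the sign of the Dnmt1 slope turned to 0.02 ± 0.05 without the late lineages and to 0.02 ± 0.03 without that pair.

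**Figure D3:**
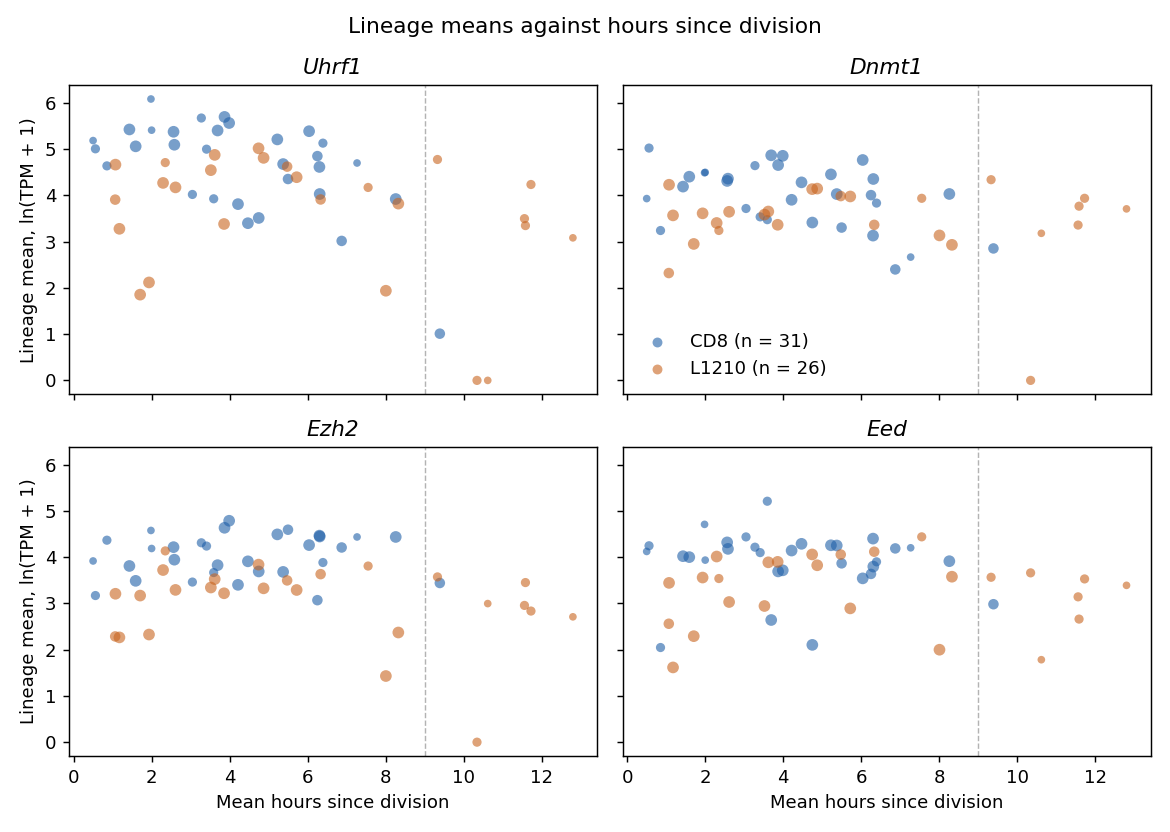
Mean level of each lineage in ln(TPM + 1) against its mean hours since division for Uhrf1, Dnmt1, Ezh2 and Eed, with CD8 lineages in blue (n = 31) and L1210 lineages in orange (n = 26), points sized by their number of cells (1 to 4) and a dashed line at 9 h. Uhrf1 in CD8 lineages averages 5.25 at 0 to 3 h, 4.65 at 3 to 6 h and 4.52 at 6 to 9 h, and is 1.01 in the single lineage after 9 h. In L1210, 3 of the values at 0, in Uhrf1, Dnmt1 and Ezh2, belong to L1210_8 and L1210_84.

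Across all genes, the slope on hours was tested with limma on lineage means, with Benjamini-Hochberg adjustment. It passed an adjusted p of 0.05 in 9 of 9997 genes (0.0900%) in CD8 cells, 4 rising and 5 falling, and in 0 of 10536 genes (0%) in L1210 cells. An unadjusted p under 0.05 was found for 1294 genes (12.9%) in CD8 cells and 588 genes (5.58%) in L1210 cells. No member passed the adjusted threshold, with 10 tested in CD8 cells and 6 in L1210 cells, and the rule that chose the members used this relation. None of the 76 genes of the 6 lists tested in CD8 cells and none of the 77 in L1210 cells passed, with median slopes of -0.05 and 0.00 per hour beside -0.03 and -0.01 over all genes. A difference of slope between the types passed in 1 of 11373 genes (0.00879%), the ubiquitin gene Ubb, and in none of the members or list genes. Of the G1/S and G2/M reference genes, 2 passed in CD8 cells, the cyclin gene Ccne2, which fell by 0.36 ± 0.07 per hour (SE, limma adjusted p = 0.0265), and the mitotic kinase gene Cdk1, which rose by 0.26 ± 0.05 (adjusted p = 0.0276).

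The study asked which transcripts are more alike in related than in unrelated cells. It also stated that cells of a clone are at similar stages of the cell cycle when released. Likeness is given here as the intraclass correlation, the share of the variance between cells that lies between lineages, over 27 CD8 lineages (90 cells) and 24 L1210 lineages (79 cells) with 2 or more cells. Its median was 0.0902 over the genes that passed the filter on low values in CD8 cells and 0.109 in L1210 cells. The filter asked for a value above 1 in ln(TPM + 1) in over 10% of cells. All 10 members passed in CD8 cells, and 6 in L1210 cells, where Dnmt3b, Tet1, Tet2 and Kdm5b did not.

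In CD8 cells Kdm5b had the highest value of the members, 0.571. Uhrf1 followed with 0.310, Tet3 with 0.285, Dnmt1 with 0.180, Tet1 with 0.146, Dnmt3a with 0.135 and Dnmt3b with 0.0972. Eed had 0.0183, Tet2 -0.0212 and Ezh2 -0.0871, below the median of all genes. Without the single lineage later than 9 h (CD8_5, CD8_6 and CD8_7), the value of Uhrf1 was 0.111, close to that median, so its likeness in CD8 cells rested largely on that lineage. Without it Kdm5b had 0.569 and Dnmt1 0.234. In L1210 cells Dnmt1 had 0.482, Uhrf1 0.465, Ezh2 0.305, Dnmt3a 0.168, Eed 0.0427 and Tet3 -0.0267.

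The cells of 1 CD8 lineage could still differ widely in Uhrf1. In the lineage of CD8_1 to CD8_4 the values were 3, 158, 162 and 62.1 TPM, and in that of CD8_59 to CD8_62 they were 3.37, 95.9, 102.11 and 229 TPM. In the lineage of CD8_25 to CD8_28, by contrast, they were 183, 266, 223 and 198 TPM. Over the 25 CD8 lineages with Uhrf1 above 0 in every cell, the highest cell exceeded the lowest by a median of 4.12-fold, and by 10-fold or more in 5. Over 19 such L1210 lineages the median was 2.07-fold, and 1 lineage reached 10-fold or more. The lineage of L1210_53, L1210_64, L1210_75 and L1210_85 was among the narrow ones, with 164, 157, 173 and 115 TPM. The difference between those medians was not tested.

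The likeness in L1210 lineages rested in part on L1210_8 and L1210_84, in which Uhrf1, Dnmt1 and Ezh2 were all listed at 0 while Eed was 50.8 and 28.2 TPM and Dnmt3a 5.63 and 5.83 TPM. Without that pair the intraclass correlation of Dnmt1 was 0.167, that of Uhrf1 0.350 and that of Ezh2 0.144. Without L1210_15 the 3 values were 0.565, 0.457 and 0.271. After regression on the number of detected genes, with the pair kept, the values were 0.321, 0.363 and 0.223. In CD8 cells the same regression left Uhrf1 at 0.380 and Dnmt1 at 0.226, so neither was lower there, with the late lineage kept.

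Kdm5b was above 0 in all cells of 4 CD8 lineages, in some cells of 5 and in no cell of 18, among the 27 lineages with 2 or more cells. In the lineage of CD8_29 to CD8_32 it was 16.02, 10, 26.03 and 5.72 TPM, the highest lineage mean. In the lineage of CD8_99 to CD8_102 it was 4.13, 1.62, 2.96 and 1.95 TPM, in CD8_75 and CD8_76 3.89 and 1.15 TPM, and in CD8_13 and CD8_15 0.51 and 0.33 TPM. These 4 lineages held 12 of the 23 cells above 0. The mean absolute difference in ln(TPM + 1) was 0.30 between the 115 related pairs and 0.62 between the 4541 unrelated pairs. In other lineages the cells were split, as in CD8_21 to CD8_24 with 8.85, 0, 2.39 and 0 TPM and in CD8_38 to CD8_41 with 0, 1.90, 0 and 9.86 TPM. Without the lineage of CD8_29 to CD8_32 the intraclass correlation fell to 0.281, which still exceeded the median of all genes.

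The detection of Kdm5b moved with the quality of the library. It was above 0 in 0 of 25 CD8 cells with fewer than 6000 detected genes, for which the exact 95% interval is 0 to 13.7% and a limit of 3 counts is 12%, in 8 of 51 cells with 6000 to 8000 (15.7%, exact 95% interval 7.02 to 28.6%) and in 15 of 21 cells with 8000 or more (71.4%, 47.8 to 88.7%). These intervals cover counting error only and take cells as independent, although cells of 1 lineage fall in the same bin, such as CD8_30, CD8_31 and CD8_32. Library quality and lineage are thus mixed in these shares. The median number of detected genes was 8259 in cells above 0 and 6521 in cells at 0. After regression on detected genes the intraclass correlation of Kdm5b was 0.373. The labels do not say which lineages came from the same mouse, so a lineage difference cannot be told apart from a difference between mice.

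**Figure D4:**
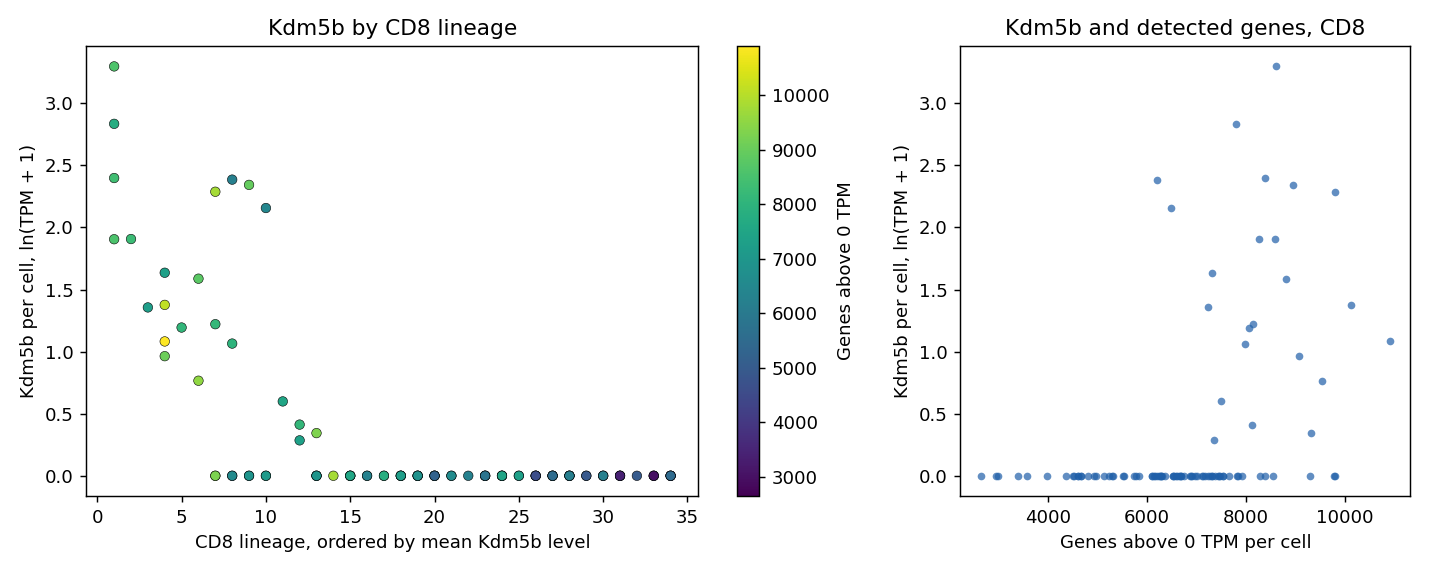
Kdm5b per CD8 cell in ln(TPM + 1), on the left by lineage (34 lineages in order of their mean, coloured by detected genes) and on the right against the number of detected genes, 1 point per cell (n = 97). All 23 cells above 0 have more than 6000 detected genes, and the first lineage on the left holds CD8_29 to CD8_32.

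A test of differences between lineages, the moderated F test of limma with Benjamini-Hochberg adjustment, was run on all genes. It called 1289 of 9997 genes (12.9%) in CD8 cells and 1417 of 10536 (13.4%) in L1210 cells. Uhrf1 and Kdm5b were among those called in CD8 cells, 2 of 10 members, and Dnmt1, Uhrf1 and Ezh2 in L1210 cells, 3 of the 6 that passed the filter. With detected genes as a covariate the CD8 count was 1007 (10.1%), with Tet3 called beside Uhrf1 and Kdm5b. These counts carry no weight as support, since the rule used the same relation. Without L1210_8 and L1210_84 the count in L1210 cells was 512 of 10652 (4.81%), with Uhrf1 the only member, and with detected genes as a covariate it was 510 (4.84%), again with Uhrf1 alone. Without covariates the same test called 6 of 19 G1/S genes (31.6%) and 8 of 12 G2/M genes (66.7%) in CD8 cells. In L1210 cells, with that pair kept, it called 12 of 19 (63.2%) and 10 of 12 (83.3%). The part of a shared cell cycle stage in the likeness of the members was not tested.

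Of the list genes, 9 of 76 were called in CD8 cells (11.8%) and 10 of 77 in L1210 cells, shares close to those of all genes. In CD8 cells the DNA methylation partners gave 4 of 17, namely Gadd45g, a stress-response gene (intraclass correlation 0.388, limma adjusted p = 6.1e-04), Cdca7, which works with the remodeller HELLS (0.294, adjusted p = 0.0213), the methyl-CpG binding gene Mbd3 (0.288, adjusted p = 0.0198) and Gadd45b (0.258, adjusted p = 0.0298). PRC1 gave 3 of 22, Phc3 (0.360, adjusted p = 0.0264), Bmi1 (0.297, adjusted p = 0.0280) and Pcgf6 (0.256, adjusted p = 0.0446). Lysine 9 methylation gave 2 of 9, the methyltransferase gene Suv39h1 (0.349, adjusted p = 0.00882) and the heterochromatin protein gene Cbx3 (0.328, adjusted p = 0.00986). None of 9 PRC2 partners, 6 demethylases and 13 lysine 4 methyltransferase genes was called. With detected genes as a covariate 6 of the 9 were still called, and Gadd45b, Bmi1 and Pcgf6 were not. With hours as a covariate 5 were, and Cdca7, Bmi1, Pcgf6 and Phc3 were not.

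In L1210 cells the called genes included Dpy30, a subunit of the lysine 4 methyltransferase complexes (0.577, limma adjusted p = 6.1e-06), the PRC1-associated genes Scmh1 (0.452, adjusted p = 0.00125), Kdm2b (0.364, adjusted p = 0.0227), Cbx2 (0.294, adjusted p = 0.0407) and Cbx8 (0.282, adjusted p = 0.0286), the heterochromatin protein gene Cbx5 (0.395, adjusted p = 0.0120), the demethylase gene Kdm6a (0.353, adjusted p = 0.0189), and the DNA methylation partners Cdca7 (0.331, adjusted p = 0.0158) and Mbd3 (0.268, adjusted p = 0.0482). Of these 9, Cdca7 and Scmh1 were still called without L1210_8 and L1210_84. With detected genes as a covariate Scmh1, Kdm6a and Dpy30 were still called. Cdca7, Mbd3, Cbx2, Cbx8, Kdm2b and Cbx5 were not. With hours as a covariate Mbd3 and Cbx2 were not called, and the others were.

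The members were also compared with each other and with all widely detected genes over the cells of a type. Cells of a lineage and of a similar library quality are not independent, so these rank correlations (Spearman's rho) are descriptions without a test. Uhrf1 followed the mean of the 19 G1/S genes with a rho of 0.734 over 97 CD8 cells and 0.795 over 81 L1210 cells, and 0.694 and 0.767 with detected genes held constant. Its rho with the mean of 12 G2/M genes was 0.108 and 0.110. The 5 genes most like Uhrf1 among 6963 in CD8 cells were Mcm7 (0.695), Eef2 (0.684), Mcm2 (0.680), Mcm5 (0.677) and Glyr1 (0.671), and among 8638 in L1210 cells Mcm3 (0.728), Pcna (0.726), Cdc6 (0.679), Pole (0.673) and Rrm2 (0.636). Replication genes thus filled 3 of the 5 places in CD8 cells and all 5 in L1210 cells, counting Rrm2, which makes deoxynucleotides.

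Dnmt1 followed Uhrf1 with a rho of 0.516 in CD8 cells and 0.541 in L1210 cells. Its nearest genes in CD8 cells were Dock8 (0.694), Cnot1 (0.678), Msn (0.650), Tln1 (0.646) and Arhgef1 (0.640), of which Dock8, Msn, Tln1 and Arhgef1 act on the cytoskeleton and none is a replication gene, and its rho with the G1/S mean was 0.388. In L1210 cells its nearest genes included E2f8 (0.603), Pold1 (0.600), Stil (0.576) and Pola2 (0.571), of which Pold1 and Pola2 encode DNA polymerase subunits, and its rho with the G1/S mean was 0.528. The rho of Dnmt1 with the G2/M mean was 0.247 in CD8 cells and 0.401 in L1210 cells. With detected genes held constant, these values were 0.172 and 0.230, and those with the G1/S mean were 0.334 and 0.443.

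Ezh2 differed between the types in the same description. Its rho with the G1/S mean was 0.115 in CD8 cells and 0.586 in L1210 cells, with Uhrf1 0.131 and 0.451, and with Eed -0.139 and 0.288. With the G2/M mean its rho was 0.296 in CD8 cells and 0.166 in L1210 cells, and 0.312 and 0.0358 with detected genes held constant. The nearest genes of Ezh2 in L1210 cells were Mcm5 (0.571), Rrm2 (0.570), Nup85 (0.553), Gspt1 (0.538) and Pole (0.520). In CD8 cells they were 2310036O22Rik (0.429), Lamtor1 (0.418), 1110008F13Rik (0.400), Ccna2 (0.381) and Cish (0.376). These differences between the types were not tested. Tet3 followed Dnmt1 and Uhrf1 in CD8 cells (0.500 and 0.522) but not in L1210 cells (0.0716 and -0.0984). Kdm5b had its highest rho with Nomo1 (0.450), A430107P09Rik (0.450), Slc5a3 (0.435), Furin (0.432) and Il2rb (0.431) in CD8 cells. Its rho with the number of detected genes was higher than any of these, 0.540, and with detected genes held constant the 5 values were 0.117 to 0.266.

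**Figure D5:**
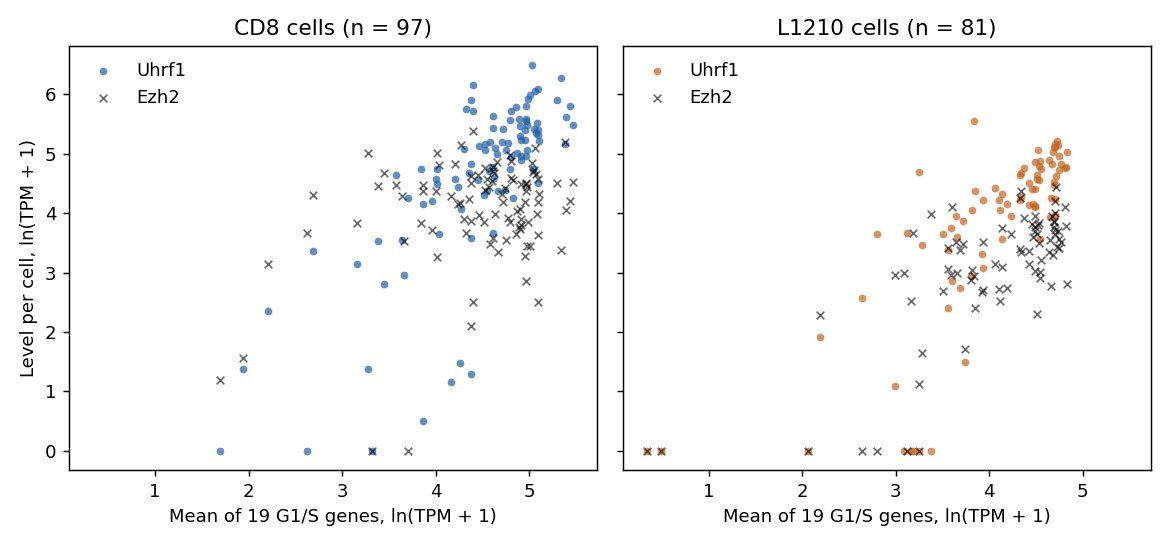
Level of Uhrf1 (circles) and Ezh2 (crosses) per cell in ln(TPM + 1) against the mean level of 19 G1/S genes in the same cell, for 97 CD8 cells on the left and 81 L1210 cells on the right. Uhrf1 rises with the G1/S mean in both panels (rho 0.734 and 0.795), and Ezh2 does so in L1210 cells (0.586) more than in CD8 cells (0.115).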

How the data were processed

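The authors prepared 1 Smart-Seq2 library per released cell, estimated expression with RSEM 1.2.3 against UCSC mm10 genes and deposited it as TPM, not log-transformed, with doublets and failed libraries included. No column of the table was left unread (0 columns not used), and reads per library were not used here. TPM were taken as ln(TPM + 1) after the filters on libraries (1000 detected genes) and genes (above 1 in more than 10% of cells). Lineages served as samples for slopes, and cells within lineages for the F test, with limma 3.58.1 (R 4.3.3, trend) and Benjamini-Hochberg adjustment over all genes tested at 0.05. P-values of slopes rest on the spread between lineages. Those of the F test rest on the spread between cells within lineages, with these cells taken as independent. Neither covers the spread between mice, and lineages may share a mouse or culture. The model fits were also run on the deposited values with hours or lineage labels shuffled and known effects added to some genes. The outcome of those runs is not reported here. Labels that name a cell which does not name it back, 3 in all, were not used as links. The rule for named genes took the 10 members, list genes that passed a test at 0.05, up to 4 genes of highest level per list and the 5 genes of highest rho. List genes past 2-fold, Suz12 and the libraries singled out were named after their values were seen. A few genes that this rule would name are not reported here. The members and lists were chosen with earlier results of these data known. Alternatives were another pseudocount (0.1 and 10 TPM), other gene filters, minimum detected genes of 2000 and 4000, TPM without Rn45s, covariates, blocks and left-out libraries. Sequences are RefSeq windows, build GRCm38.p6, and positions follow GENCODE. Python 3.11.15, scipy 1.17.1 and pandas 2.3.3 were used.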

Additional observations from a re-analysis of the deposited data

Results flagged for a closer look

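The slope on hours since division of Ubb, a ubiquitin gene outside the 10 members, differed between the cell types by 0.13 ± 0.03 in ln(TPM + 1) per hour (SE, limma interaction of hours and cell type, adjusted p = 0.0332), with 0.13 ± 0.02 in CD8 lineages and -0.00 ± 0.01 in L1210 lineages. It was named after its value was seen.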

How the results depend on the processing

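No paired analysis was possible because the replicate numbers name single cells of 2 cell types and pair nothing between them. The count of genes whose level changed with hours in CD8 cells was 9, and it was 5 with 0.1 TPM added, 25 with 4000 or more detected genes, 3 with all genes above 0 TPM, 23 with cells as samples and the lineage as a random block, 17 with detected genes as a covariate and 5 without the lineage later than 9 h. In L1210 cells it was 0, and 1 with that covariate (Hyls1) and 2 without L1210_8 and L1210_84 (Kpna2 and Hyls1). The count of genes that differ between L1210 lineages was 1417, and it was 674 with 4000 or more detected genes, 2186 with all genes above 0 TPM, 510 with detected genes as a covariate, 545 by the Mann-Whitney U-test on pairs and 512 without L1210_8 and L1210_84. The count whose slope differs between the types was 1, and it was 2 with 10 TPM added or detected genes as a covariate, and 0 without Rn45s or with all genes above 0 TPM. The count past 2-fold was 3988, and 1507 with 10 TPM added. The causes were not tested, beyond the change in genes or samples that an alternative itself makes. The 3 alternatives that leave out the late lineages, CD8_29 to CD8_32, or L1210_8 and L1210_84 were chosen after seeing the data. In CD8 lineages 8 of 10 members had the higher level than in L1210, 8 or 9 under the alternatives, and 7 had a negative slope on hours, 6 or 7 under the alternatives. Slopes were mostly slightly negative over all genes too, with a median of -0.035 per hour in CD8 cells beside -0.042 for the members. The shares of all genes with the higher level or a negative slope were not counted, so these 2 counts mark no trait of the members. The intraclass correlation of Uhrf1 in CD8 cells was 0.310, and 0.111 without the lineage later than 9 h. That of Dnmt1 in L1210 cells was 0.482, and 0.262 with 4000 or more detected genes, and that of Ezh2 was 0.305 and 0.0426. The low TPM of Kdm5b, Tet1, Dnmt3b and Tet2, near what a library detects, limit what can be said of these genes.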

Other observations

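Libraries left out of the comparisons held some values of the members. The CD8 doublet CD8_64, with 6843 detected genes, had Kdm5b at 9.85 TPM and Dnmt3b at 22.6 TPM, and its doublet sister library CD8_63 had both at 0. The CD8 doublet CD8_46 had Dnmt3b at 78.2 TPM, above the highest kept cell (46.8 TPM). The L1210 doublet L1210_48, with 1823 detected genes, had Uhrf1 at 1143 TPM and Dnmt1 at 0. Of the 5 left-out L1210 libraries under 1000 detected genes, 4 had all 10 members at 0, and L1210_83 had Ezh2 at 441 TPM and the other members at 0. All 5 such CD8 libraries had the 10 members at 0.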
